A study of Drosophila melanogaster with 9 samples.

Results

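Heads of female Drosophila melanogaster homozygous for Ime4 were set against heads of control females, by the labels alone, as 3 libraries against 3 and 6 of the 9 libraries of the series. Both groups were adults of 1 to 2 days, raised at 25 °C and 60% humidity, and poly(A) RNA of whole heads was sequenced. The labels name neither the Ime4 allele nor the genotype of the control flies. Whether the libraries of 1 group hold separately raised flies is not stated either, and the p-values therefore measure no more than the spread between these libraries. The 3 libraries of heterozygous flies in the series entered the fit for its estimate of the spread and are not described here. Of 17558 annotated genes counted, 8972 had enough reads to be tested. Reads in genes numbered 4272550, 3607203 and 4051952 in the homozygous libraries, and 2730289, 3449227 and 3182093 in the control libraries. Reads outside annotated genes made up 20%, 20% and 17.2% of reads in homozygous libraries, against 30.3%, 26.2% and 31.7% in control libraries. Reads with more than 1 alignment made up 9.44%, 12.3% and 8.96% in homozygous libraries and 15.4%, 16% and 15.1% in control libraries. Both shares separated the groups without overlap, and their part in the results was not tested.

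Ime4, listed in current annotations as Mettl3, is the catalytic subunit of the complex that adds a methyl group to adenosines in messenger RNA, forming m6A. In Drosophila the mark is read in the nucleus by Ythdc1 and is known for its part in the alternative splicing of Sxl, the master switch of sex determination, and for its abundance in the nervous system. A whole head holds brain, eyes, cuticle, muscle, fat body and the front of the gut, so fewer cells of a type and less RNA per cell cannot be told apart in these data.

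Mettl3 had 3, 3 and 2 reads in homozygous libraries, against 17, 19 and 18 in control libraries. The groups did not overlap. The gene lies on chromosome 3R from 24032157 to 24034257 (BDGP6). It fell by 3.00 ± 0.45 in log2 units (SE) in homozygous heads, at an edgeR adjusted p = 5.56e-04, and the part of the gene that the allele changes is not given.

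At an edgeR adjusted p of at most 0.05, 1765 genes changed in homozygous heads, 19.7% of those tested, with 978 higher (10.9%) and 787 lower (8.77%). The median log2 difference over all tested genes was 0.02. Each called gene was then read library by library. Levels were scaled counts relative to library size (CPM), and a homozygous library was taken as past the controls where its CPM lay beyond all 3 control libraries in the direction of the fold change. All 3 homozygous libraries were past the controls for 1676 called genes, and over all tested genes this held for 3027 (33.7%).

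The homozygous libraries did not contribute alike. Replicates 1 and 2, but not replicate 3, lay past the controls for 77 called genes (0.858% of those tested), 61 higher and 16 lower. Replicates 1 and 3 without 2 did so for 8 called genes, and 2 and 3 without 1 for 3. Over all tested genes, called or not, the corresponding counts were 1446 (16.1%), 620 (6.91%) and 543 (6.05%). In a principal component analysis of the 6 libraries the first component, 53% of the variance, separated the groups, while the second, 18.2%, placed homozygous replicate 3 at -33.8 and homozygous replicates 1 and 2 at 10.8 and 14.

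Leaving out homozygous replicate 3 increased the number of calls, whereas leaving out either of the others lowered it. Without replicate 3 there were 2405 calls, without replicate 2 there were 1324 and without replicate 1 there were 1249. With replicate 3 as the one homozygous library, edgeR called 1315 genes (14.7% of those tested), 703 higher (7.84%) and 612 lower (6.82%), with that library taken to vary as the other groups do. Those calls held 884 of the 1765 genes, 50.1%, in the same direction. Replicate 2 alone kept 68.4% of the 1765 and replicate 1 alone kept 64.2%. Called genes with all 3 libraries past the controls that replicate 3 also called alone numbered 875, with a median absolute log2 change of 0.84 in the fit of all libraries, against 0.65 for the others of the 1676.

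**Figure D1:**
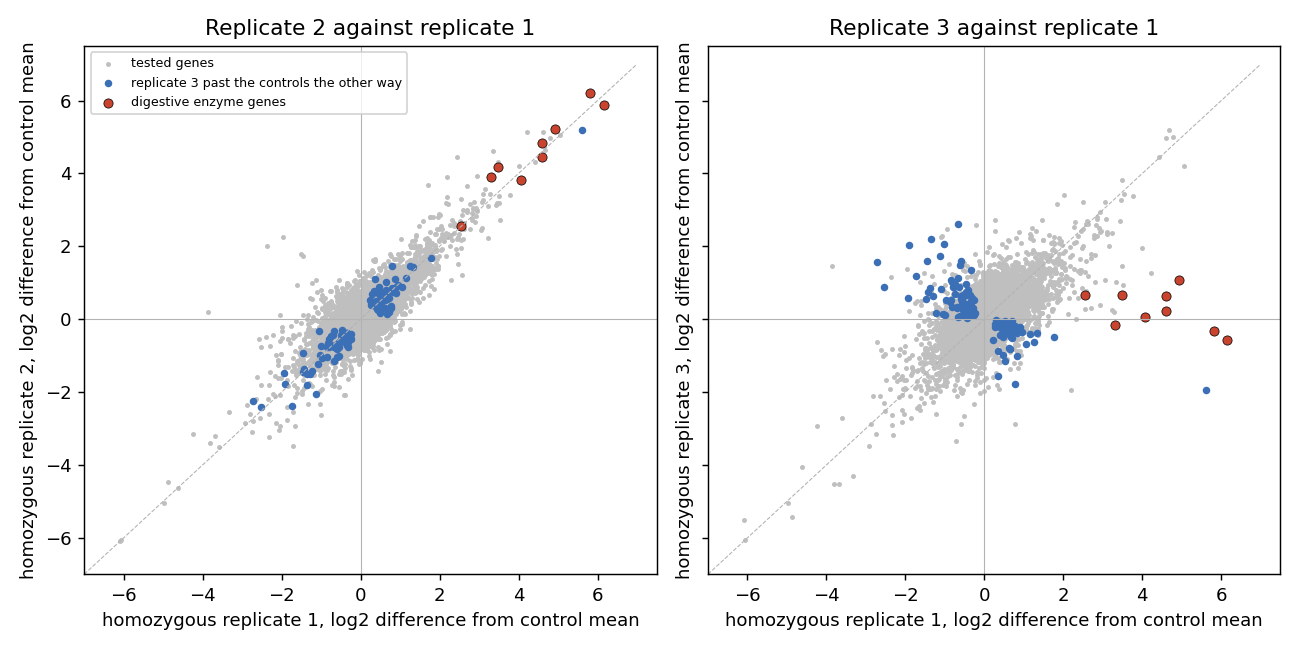
Each point is a tested gene, placed by log2(CPM + 0.5) minus the mean of the 3 control libraries, with homozygous replicate 1 on the horizontal axis and homozygous replicate 2 (left) or 3 (right) on the vertical axis. Digestive enzyme genes (red) lie near the diagonal on the left and well below it on the right, though replicate 3 of Jon74E and Amy-d was past the controls. The 135 genes in blue were chosen because replicate 3 lay past the controls on the opposite side from replicates 1 and 2.

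Among the largest changes that rested on homozygous replicates 1 and 2 were those of genes of digestive enzymes, which the midgut epithelium secretes. For betaTry, which encodes a trypsin, 577, 645 and 6 reads were counted in homozygous libraries, against 11, 4 and 5 in control libraries. Its neighbour alphaTry had 272, 280 and 11 reads in homozygous libraries and 7, 10 and 5 in control libraries. In both genes replicates 1 and 2 were far above every other library, and replicate 3 lay in or near the control range. The 2 genes are near-identical copies, so the split of reads between them is uncertain. The log2 change of betaTry was 5.64 ± 1.11 (SE) over all 3 homozygous libraries, at an edgeR adjusted p = 0.00338, and with replicate 3 alone its log2 difference was -0.55 (edgeR adjusted p = 0.742).

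The Jonah genes, which encode chymotrypsin-like and elastase-like serine proteases of the gut, followed the trypsins. Of 16 Jonah genes 3 passed the low-count filter, and 13 were not tested. Jon65Aiv had 295, 213 and 16 reads in homozygous libraries, against 19, 14 and 6 in control libraries. The adjacent gene yip7, which encodes a related protease, had 509, 393 and 30 reads in homozygous libraries and 27, 20 and 5 in control libraries. Jon74E, with 236, 247 and 14 reads in homozygous libraries and 7, 5 and 2 in control libraries, was the exception in that its replicate 3 still lay past the controls. Without replicates 1 and 2 its log2 difference was 1.17, against 4.84 with them, and it was no longer called (edgeR adjusted p = 0.347).

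Starch- and sugar-digesting enzymes and a lysozyme showed the same libraries high. Of 8 tested maltase and amylase genes 4 were called higher and 2 lower, and with replicate 3 alone 0 were called either way. Over all libraries the share called was 75%, against 19.7% of all tested genes. Without homozygous replicate 2, control replicate 1 or control replicate 3 the count higher was 1. The maltase gene Mal-A1 had 293, 411 and 39 reads in homozygous libraries, against 12, 69 and 7 in control libraries. Mal-A6 had 154, 203 and 12 reads in homozygous libraries and 6, 26 and 7 in control libraries. LysD, a lysozyme gene expressed in the gut, had 329, 233 and 1 reads in homozygous libraries, against 8, 0 and 1 in control libraries. Near-identical neighbours of LysD and of the amylase gene Amy-d make the assignment of reads to single copies uncertain. Amy-d, which encodes the starch-splitting amylase, had 45.8, 46.1 and 11.9 CPM in homozygous libraries and 9.66, 8.8 and 4.69 CPM in control libraries, with replicate 3 just past the highest control. The calls of Mal-A1 and Mal-A6 were lost without homozygous replicate 2 (log2 2.15 and 2.31, edgeR adjusted p = 0.0631 and 0.0619), without control replicate 1 (2.56 and 2.74, adjusted p = 0.0656 and 0.0633) and without control replicate 3 (2.36 and 2.66, adjusted p = 0.0606 and 0.065).

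The 2 members of the maltase list that fell did so in every homozygous library. Mal-B1, a maltase gene, had 0.479, 0.559 and 1.22 CPM in homozygous libraries, against 6.69, 4.82 and 3.81 CPM in control libraries. The alpha-glucosidase gene tobi, a target of the insulin-like and glucagon-like hormones of the fly, had 0.719, 1.68 and 1.46 CPM in homozygous libraries and 4.46, 6.81 and 5.28 CPM in control libraries. The groups did not overlap in either gene. Reads in control libraries contributed to passing the low-count filter, so these calls are a description. The changes were -2.68 and -2.10 on the log2 scale (edgeR adjusted p = 0.00200 and 0.00397), and -2.04 and -1.93 with replicate 3 alone (edgeR adjusted p = 0.058 and 0.0542).

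The low-count filter, which asked for enough reads in 3 libraries, left out further genes with this pattern. Among the 8586 genes not tested, 68 had at least 10 reads in each of homozygous replicates 1 and 2, both past all controls, with replicate 3 not past them. The same count was 12 for replicates 1 and 3 and 10 for replicates 2 and 3. Of the 68 genes, 11 were on a list of midgut markers. When no filter was applied, edgeR called 44 of the 68, 0 of the 12 and 1 of the 10. The same reads picked all these genes, so their calls are a description. The Jonah protease gene Jon99Ciii had 196, 122 and 0 reads in homozygous libraries, against 4, 0 and 1 in control libraries. The trypsin gene epsilonTry had 166, 135 and 0 reads in homozygous libraries and 3, 0 and 0 in control libraries. Both had no read in homozygous replicate 3. Bace, which encodes an aspartic protease, had 150, 206 and 0 reads in homozygous libraries and 0, 2 and 0 in control libraries. Chs2, the chitin synthase of the gut lining, had 24, 19 and 6 reads in homozygous libraries, against 4, 9 and 1 in control libraries. These genes were chosen after their values were seen.

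The midgut marker list of 49 genes summed to 983, 1130 and 69.6 CPM in homozygous libraries, against 91.4, 88.3 and 23.2 CPM in control libraries. Of the 49 genes 10 passed the low-count filter, to which their reads in homozygous libraries contributed, so that their calls are a description, and the other 39 had no test. Members at 0 in all 6 libraries numbered 10, among them the trypsin genes deltaTry, gammaTry and zetaTry. Reads with more than 1 alignment were left out of gene counts, so a 0 in a gene with near-identical copies need not mean absence. The marker mex1, a microvillar protein of the midgut, had 17, 22 and 0 reads in homozygous libraries and 0, 2 and 0 in control libraries. The ovary list, which includes eggshell genes, summed to 2.63, 2.52 and 1.7 CPM in homozygous libraries, and to 8.92, 7.38 and 362 CPM in control libraries. The part of gut tissue in these results was not tested.

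Of the 77 genes resting on homozygous replicates 1 and 2, 31 are named by a number only, and 12 formed 5 runs of neighbours. CG12374, which encodes a metallocarboxypeptidase, had 578, 372 and 1 reads in homozygous libraries, against 11, 6 and 6 in control libraries. CG18180, a serine protease gene, had 157, 254 and 18 reads in homozygous libraries and 12, 0 and 10 in control libraries. In both genes the first 2 homozygous libraries stood alone. A run on chromosome 2L (10686124 to 10694103) held CG7296, CG7294 and CG17108. CG17108, the most abundant of the 3 in counts, had 4704, 4620 and 1775 CPM in homozygous libraries, against 2230, 1805 and 1549 CPM in control libraries. Its replicate 3 lay inside the control range, and its call (log2 0.99, edgeR adjusted p = 0.0267) was lost without homozygous replicate 1 or 2 or control replicate 2 or 3, at log2 0.78 to 0.97 and edgeR adjusted p = 0.0881 to 0.0999. With replicate 3 alone its log2 difference was -0.09.

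**Figure D2:**
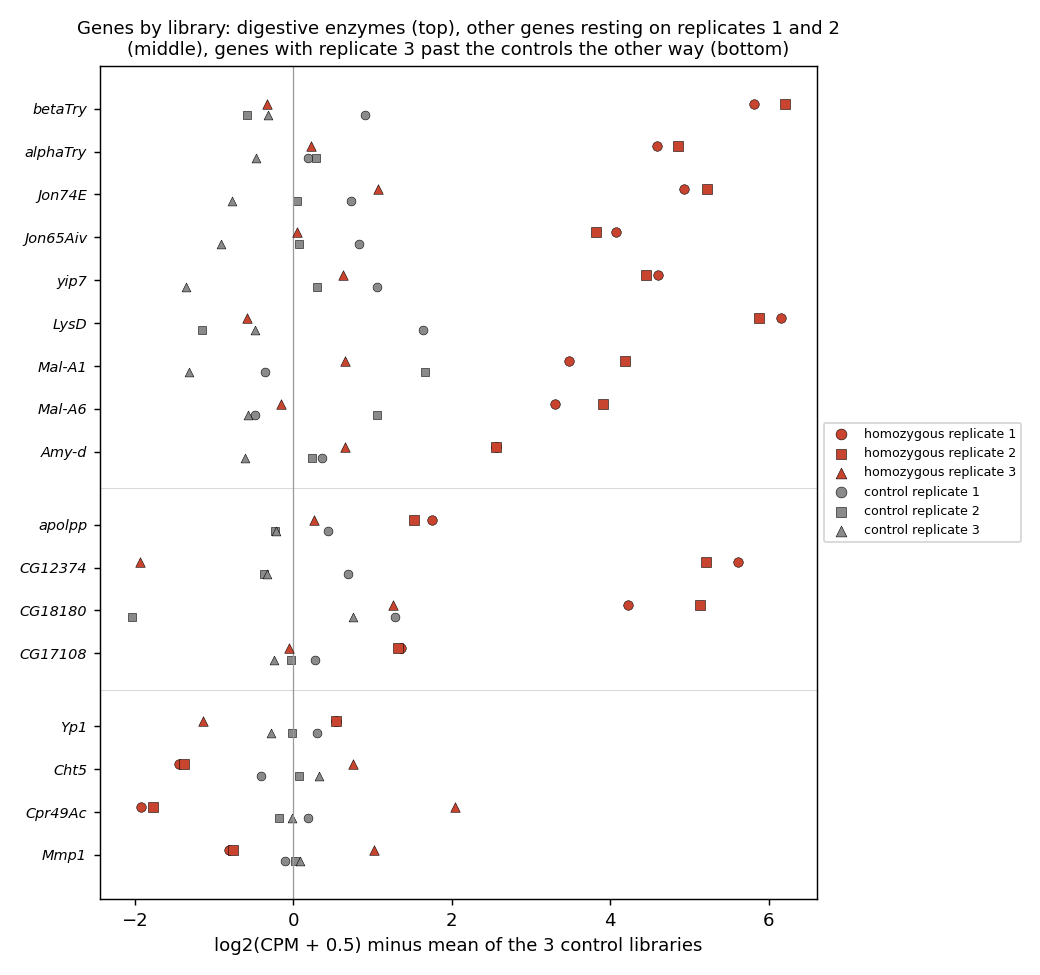
Log2(CPM + 0.5) minus the mean of the 3 control libraries for single genes, with homozygous libraries in red above control libraries in grey and symbol shapes for replicates 1 to 3. Homozygous replicates 1 and 2 lie far to the right of all other libraries for the digestive enzymes in the top block, and homozygous replicate 3 lies on the other side of the controls for the 4 genes in the bottom block.

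Levels of apolpp also differed by library. apolpp, the precursor of the apolipoproteins that carry lipid in the haemolymph, had 1884, 1620 and 676 CPM in homozygous libraries, against 762, 480 and 485 CPM in control libraries. Replicates 1 and 2 were above all controls and replicate 3 lay among them. The log2 change of apolpp was 1.28 ± 0.29 (SE) over all libraries, at an edgeR adjusted p = 0.00688, and 0.21 with replicate 3 alone (edgeR adjusted p = 0.56). The fat body list of 8 genes summed to 9154, 8897 and 3405 CPM in homozygous libraries, and to 6137, 4468 and 4164 CPM in control libraries. All 8 genes had reads in both groups, and 3 of the 7 tested were called higher, where 10.9% of all tested genes were. The sum was carried by apolpp and the yolk protein genes, and replicate 3 was the highest library for Fbp1, at 1.44, 2.24 and 7.54 CPM in homozygous and 1.86, 0.284 and 0.88 CPM in control libraries. It was also the highest for bmm, a lipase gene, at 112, 103 and 125 CPM in homozygous and 68, 113 and 84.5 CPM in control libraries. The part of fat body content in the apolpp result was not tested.

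The counts of calls in lists of the protein machinery differed by library. The regulatory particle of the proteasome, which unfolds tagged proteins, was added as a list after values were seen. It had 6 of 19 tested genes lower and 0 higher, with a median log2 difference of -0.52, but 1 lower with replicate 3 alone (median -0.11). Leaving out 1 library at a time gave between 2 and 16 lower, the highest count without homozygous replicate 3. Over all libraries the share lower was 31.6%, against 8.77% of all tested genes. Of the core particle of the proteasome, by symbol stem, 0 of 6 tested Prosalpha and 0 of 7 tested Prosbeta genes were called. All 3 homozygous libraries were past the controls for 6 of the 19 genes, a share under the 33.7% of all tested genes. Of the called genes, 1 rested on replicates 1 and 2. That gene, Rpn3, a lid subunit, had 69.5, 69.6 and 109 CPM in homozygous libraries, against 97, 139 and 147 CPM in control libraries. Its replicate 3 fell within the controls. Its call (log2 -0.63, edgeR adjusted p = 0.0328) was lost without homozygous replicate 1 or 2 or control replicate 2 or 3, at log2 -0.57 to -0.52 and edgeR adjusted p = 0.112 to 0.122.

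Ribosomal protein genes, another list added after values were seen, were called higher in 64 of 78 tested members with replicates 1 to 3 together, and in 17 with replicate 3 alone. The share higher over all libraries was 82.1%, against 10.9% of all tested genes. The count lay between 38 and 72 when 1 library was left out. All 3 homozygous libraries were past the controls for 60 of the 78 genes, against 33.7% of all tested genes. Of the called genes, 5 rested on replicates 1 and 2. The median log2 difference from the control mean was 0.71, 0.84 and 0.34 in homozygous replicates 1, 2 and 3, and in the fit corrected for exon length 44 members were called higher, where 9.66% of all genes were. RpS2, a protein of the small subunit and 1 of those 5, had 321, 350 and 215 CPM in homozygous libraries and 223, 155 and 170 CPM in control libraries, with replicate 3 inside the control range. Its call (log2 0.70, edgeR adjusted p = 0.0129) was lost without homozygous replicate 2 (0.56, adjusted p = 0.0532), control replicate 2 (0.59, adjusted p = 0.0686) or control replicate 3 (0.65, adjusted p = 0.0518).

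In another set of genes homozygous replicate 3 moved against replicates 1 and 2. Of the 2405 genes called without replicate 3, that library lay within the control range for 478 (19.9%) and past the controls on the opposite side for 135 (5.61%), 58 of them higher and 77 lower in replicates 1 and 2. The same opposite count was 5 for replicate 2 among the 1324 genes called without it, and 4 for replicate 1 among 1249. Only 3 of the 135 genes were called with all libraries together. They were chosen on these libraries, so their values are a description.

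From the 135 genes, 4 are given here, chosen after their values were seen and standing for no common function. Cht5, a chitinase that degrades old cuticle, had 181, 189 and 826 CPM in homozygous libraries, against 371, 518 and 617 CPM in control libraries. Cpr49Ac, a cuticle protein with a chitin-binding domain, had 5.75, 6.43 and 96.6 CPM in homozygous libraries and 26.4, 20.4 and 22.9 CPM in control libraries. Mmp1, a matrix metalloproteinase that remodels tissue, had 193, 199 and 686 CPM in homozygous libraries, against 315, 342 and 359 CPM in control libraries. Replicates 1 and 2 were below all controls and replicate 3 above them in each of the 3 genes.

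The order was the opposite for the yolk protein gene Yp1, which the fat body of females expresses. It had 3234, 3241 and 1017 CPM in homozygous libraries, against 2739, 2212 and 1839 CPM in control libraries. Here replicates 1 and 2 were above all controls and replicate 3 below them. The log2 differences of Yp1, Cht5, Cpr49Ac and Mmp1 over all 3 homozygous libraries were 0.14, -0.33, 0.66 and 0.09, and none passed the test (edgeR adjusted p = 0.579 to 0.895). With replicate 3 alone they were -1.18, 0.69, 2.04 and 0.99, and without replicate 3 they were 0.52, -1.44, -1.92 and -0.79.

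Other genes stood apart from the controls in all 3 homozygous libraries. CG43149, a short protein-coding gene on 3L (53873 to 54751), had 21.3, 17.6 and 18.7 CPM in homozygous libraries, against 1.86, 2.55 and 0.587 CPM in control libraries. The methuselah-like receptor gene mthl8 had 82, 66 and 83 reads in homozygous libraries and 0, 10 and 0 in control libraries. The noncoding gene lncRNA:CR44315 had 22, 10 and 20 reads in homozygous libraries, against 0, 0 and 0 in control libraries, which put it at least 14.1-fold higher against a floor of 3 reads over the control group. None of these genes overlapped between groups. Their reads in homozygous libraries contributed to passing the low-count filter, so their calls are a description. Log2 changes were 3.51 ± 0.32 for CG43149 and 4.19 ± 0.53 for mthl8 (SE), at edgeR adjusted p = 9.94e-06 and 1.51e-04, and with replicate 3 alone the values were 3.44 and 4.22.

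Among genes lower in all 3 homozygous libraries was Ugt37A3, a UDP-glycosyltransferase gene of detoxification. It had 1.68, 2.52 and 0.73 CPM in homozygous libraries, against 29.7, 24.7 and 28.5 CPM in control libraries. CG32523 had 2.4, 4.47 and 0.973 CPM in homozygous libraries and 30.5, 24.4 and 32.0 CPM in control libraries. CG16898 had 0.24, 0.559 and 0.243 CPM in homozygous libraries, against 5.2, 3.97 and 5.87 CPM in control libraries. The groups stood well apart in each gene. Reads in control libraries contributed to passing the low-count filter, so these calls are a description. They fell by 4.07, 3.49 and 3.75 on the log2 scale (edgeR adjusted p = 4.35e-06, 2.81e-05 and 6.97e-04).

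To look beyond the usual pathways, 64 lists of gene families were read against these calls. They held 1102 genes, of which 610 were tested, and 102 of those were called higher and 46 lower (24.3% called, against 19.7% of all tested genes). Of the 44 lists with at least 5 tested members, 17 had a share of calls at or under that of all genes.

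**Figure D3:**
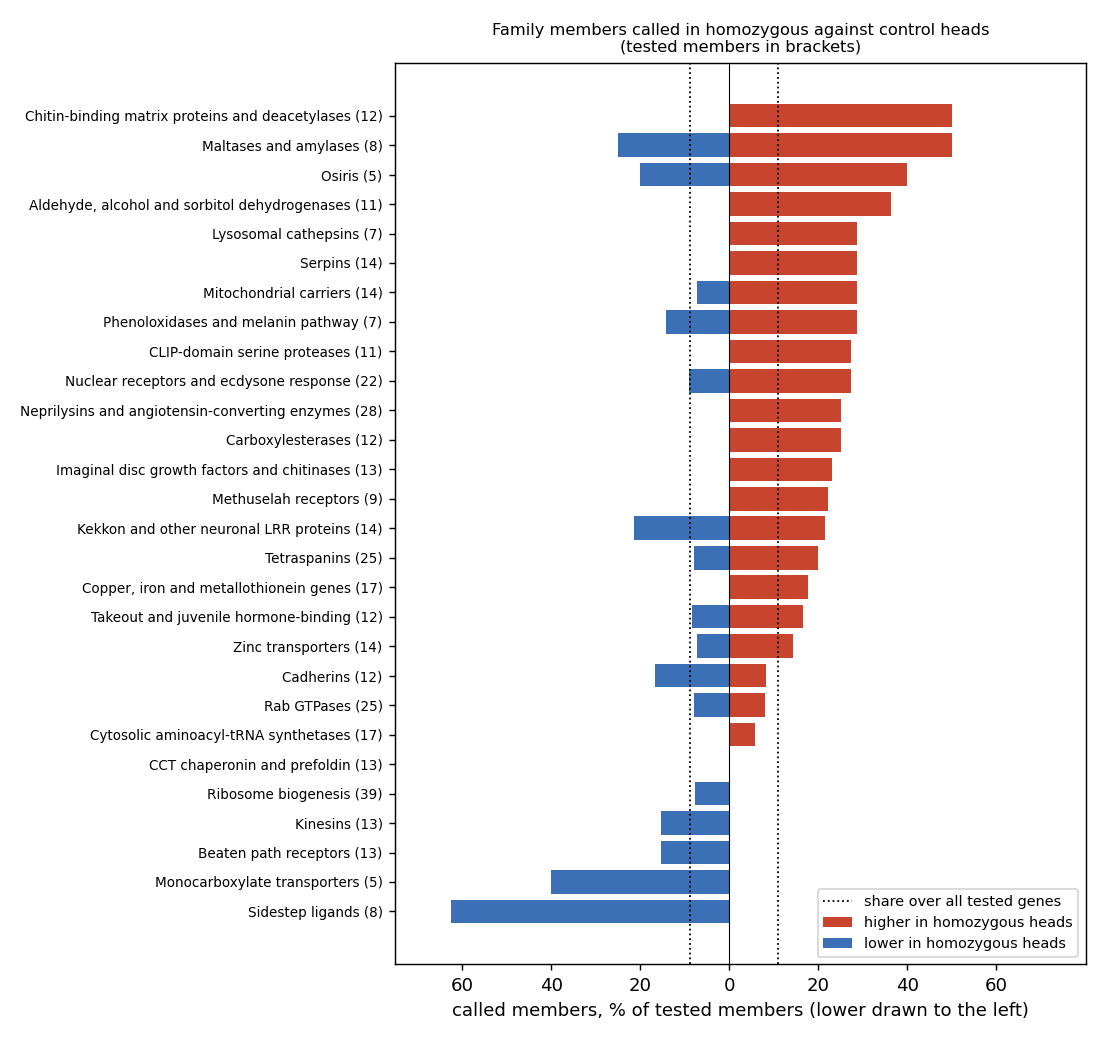
Bars give the share of tested members called higher (right) or lower (left) in homozygous heads for the family lists named in the text with at least 5 tested members, and dotted lines the shares over all tested genes, 10.9% higher and 8.77% lower. Chitin-binding matrix proteins stand highest on the right together with the maltases and amylases, sidestep ligands extend farthest to the left, and the chaperonin list has no bar.

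Of 12 tested genes for matrix proteins that bind or deacetylate chitin, 6 were higher and 0 lower in homozygous heads. The higher share was 50%, against 10.9% of all tested genes, and the median log2 difference was 0.78. With replicate 3 alone 7 were higher, and with 1 library left out 5 or 6. Gasp, a chitin-binding protein of the tracheal and cuticular matrix, had 528, 576 and 681 CPM in homozygous libraries, against 282, 397 and 336 CPM in control libraries. obst-B, a relative of it, had 61.6, 70.4 and 75.7 CPM in homozygous libraries and 22.3, 34.3 and 39.6 CPM in control libraries. The groups did not overlap in either gene, with changes of 0.81 and 1.10 on the log2 scale (edgeR adjusted p = 0.00146 and 9.24e-04).

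The chitin deacetylases serp and verm, which modify chitin fibres and set the length of tracheal tubes in embryos, were highest in homozygous replicate 3. verm had 574, 597 and 1250 CPM in homozygous libraries, against 334, 401 and 462 CPM in control libraries. serp had 300, 305 and 600 CPM in homozygous libraries and 160, 238 and 268 CPM in control libraries. Both were past the controls in all 3 libraries. The log2 change of verm was 1.02 ± 0.24 (SE), at an edgeR adjusted p = 0.00904, and the call of serp (0.85, adjusted p = 0.0232) was lost without control replicate 1 (0.67, adjusted p = 0.0997) or control replicate 2 (0.91, adjusted p = 0.0578). The mucin gene Muc68E had 19, 22 and 13 reads in homozygous libraries, against 0, 4 and 0 in control libraries (log2 3.37, edgeR adjusted p = 0.00660). Its homozygous reads contributed to passing the low-count filter, so its call is a description.

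Imaginal disc growth factors, secreted chitinase relatives without enzyme activity, were listed with the chitinases. Of 13 tested genes 3 were higher and 0 lower, 23.1% called against 19.7% of all tested genes. All 3 were growth factors, and without homozygous replicate 3 there were 5 higher and 1 lower. Idgf5 had 20.8, 18.7 and 19.7 CPM in homozygous libraries, against 11.9, 6.24 and 5.57 CPM in control libraries. Idgf1 had 25.2, 21.2 and 16.8 CPM in homozygous libraries and 9.66, 8.23 and 12.6 CPM in control libraries. Idgf4, the most abundant of them in counts, had 551, 511 and 431 CPM in homozygous libraries, against 329, 289 and 368 CPM in control libraries. Each was higher in all 3 homozygous libraries, with log2 changes of 1.35, 1.05 and 0.60 for Idgf5, Idgf1 and Idgf4 (edgeR adjusted p = 0.00204, 0.00431 and 0.00586). With replicate 3 alone Idgf1 and Idgf4 were not called (0.70 and 0.37, edgeR adjusted p = 0.115 and 0.121).

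In the melanin pathway, which pigments and hardens cuticle, 2 of 7 tested genes were higher and 1 lower (2 lower without homozygous replicate 3). Calls made up 42.9% of this small list, against 19.7% of all tested genes. The yellow gene y, needed for black pigment, had 9.82, 8.94 and 8.51 CPM in homozygous libraries, against 1.86, 1.42 and 1.47 CPM in control libraries. PPO2, a prophenoloxidase of the crystal cells of the blood, had 7.19, 5.03 and 6.33 CPM in homozygous libraries and 2.23, 1.7 and 1.17 CPM in control libraries. The tan gene t, which encodes a hydrolase that releases dopamine and histamine from their beta-alanyl conjugates, had 153, 125 and 143 CPM in homozygous libraries, against 262, 226 and 261 CPM in control libraries. The groups stood apart in each, with log2 changes of 2.52, 1.87 and -0.83 (edgeR adjusted p = 9.96e-05, 0.00338 and 4.56e-04). The labels give no genotype at y.

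Of 7 genes on the fatty acid elongase list 4 were tested, and all 4 were called higher, against 10.9% of all tested genes. The family lengthens fatty acids for membranes and for the waxy hydrocarbons of the cuticle, and members not on the list are not covered. Elovl7 had 170, 154 and 269 CPM in homozygous libraries, against 108, 121 and 120 CPM in control libraries. bond had 169, 203 and 201 CPM in homozygous libraries and 125, 152 and 122 CPM in control libraries. Baldspot had 412, 412 and 387 CPM in homozygous libraries, against 326, 311 and 220 CPM in control libraries. Homozygous libraries were above every control in each gene, with log2 changes of 0.76, 0.52 and 0.50 (edgeR adjusted p = 0.00740, 0.00917 and 0.0242). The fourth, sit, had a log2 change of 0.98 (edgeR adjusted p = 0.0427) on 25, 27 and 43 reads in homozygous libraries, against 11, 16 and 12 in control libraries. The calls of Elovl7 and bond held with each library left out. That of Baldspot was lost without homozygous replicate 1 (0.48, adjusted p = 0.0635), homozygous replicate 2 (0.48, adjusted p = 0.0555) or control replicate 3 (0.34, adjusted p = 0.076), and that of sit in 5 of the 6 fits, at 0.73 to 1.07 and adjusted p = 0.0753 to 0.141, all but the one without homozygous replicate 1.

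Alcohol, aldehyde and sorbitol dehydrogenases had 4 of 11 tested genes higher and 0 lower, with a median log2 difference of 0.40. The higher share was 36.4%, against 10.9% of all tested genes. Sodh1, a sorbitol dehydrogenase of polyol metabolism, had 131, 143 and 96.1 CPM in homozygous libraries, against 24.5, 31.5 and 28.2 CPM in control libraries. Its relative Sodh2 had 31.6, 29.9 and 23.6 CPM in homozygous libraries and 13, 10.2 and 11.7 CPM in control libraries. Fdh, a glutathione-dependent formaldehyde dehydrogenase, had 40.7, 48.9 and 45.5 CPM in homozygous libraries, against 24.2, 25.8 and 27.3 CPM in control libraries. The groups did not overlap for any of them. Log2 changes were 2.13 ± 0.17 for Sodh1 (SE; edgeR adjusted p = 2.40e-06) and 1.29 for Sodh2 (adjusted p = 5.29e-04), and both were called with replicate 3 alone, at 1.74 and 1.00. sni, a carbonyl reductase that protects neurons from oxidative stress, had a log2 change of 1.32 (edgeR adjusted p = 0.00654), which was 0.94 and not called with replicate 3 alone (adjusted p = 0.161). Carboxylesterases had 3 of 12 tested genes higher (25% called, against 19.7% of all tested genes). Among them was Est-Q, with 15.6, 16.2 and 17.8 CPM in homozygous libraries and 4.46, 2.84 and 4.4 CPM in control libraries. Another was alpha-Est7, which metabolises organophosphates, at a log2 change of 0.91 (edgeR adjusted p = 6.97e-04).

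On the lists of neprilysins and angiotensin-converting enzymes, clip-domain proteases, lysosomal cathepsins and serpins, the called members were all higher. Other proteases are not covered by these lists, and the proteasome regulatory particle above had 6 of 19 genes lower. Of 28 tested neprilysin and angiotensin-converting enzyme genes, which encode metallopeptidases that cleave peptide hormones, 7 were higher and 0 lower. That was 25% called, against 19.7% of all tested genes. With 1 library left out 2 to 6 were higher, with 3 or fewer without homozygous replicate 2 or control replicate 2 or 3, and 1 was lower without homozygous replicate 3. Ance-2 had 12.2, 11.2 and 6.57 CPM in homozygous libraries, against 1.86, 0.851 and 0.293 CPM in control libraries. Ance-3 had 43.6, 36.3 and 36.2 CPM in homozygous libraries and 19.3, 23.6 and 23.5 CPM in control libraries. Both genes were separate between groups, with log2 changes of 3.36 and 0.80 (edgeR adjusted p = 4.05e-04 and 0.00325). Homozygous reads contributed to Ance-2 passing the low-count filter, so its call is a description. The neprilysin-like gene Nepl18 had 15.1, 14.8 and 41.6 CPM in homozygous libraries, against 10.4, 10.2 and 5.57 CPM in control libraries, and its call (log2 1.46, adjusted p = 0.0161) was lost without control replicate 3 (1.21, adjusted p = 0.0727).

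Serpins, which trap serine proteases and restrain blood clotting, melanisation and Toll signalling, had 4 of 14 tested genes higher and 0 lower. The higher share was 28.6%, against 10.9% of all tested genes, and the median log2 difference was 0.66. Spn47C had 46.5, 41.1 and 35.8 CPM in homozygous libraries, against 11.1, 13.3 and 12.6 CPM in control libraries. nec, the inhibitor of the Toll pathway in antifungal defence, had 58.7, 75.7 and 76.1 CPM in homozygous libraries and 32.7, 45.1 and 45.8 CPM in control libraries. Spn77Ba, which restrains melanisation in the trachea, had 78.8, 68.5 and 98.5 CPM in homozygous libraries, against 43.5, 59.6 and 47.8 CPM in control libraries. All were above the controls in all 3 libraries, with log2 changes of 1.72, 0.76 and 0.70 (edgeR adjusted p = 1.15e-05, 0.00431 and 0.00778). Spn42Da had a change of 0.91 (edgeR adjusted p = 0.00327) that was 0.61 with replicate 3 alone (adjusted p = 0.0828).

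Clip-domain serine proteases, the enzymes that such serpins act on, had 3 of 11 tested genes higher, 27.3% against 10.9% of all tested genes. MP1, which takes part in the melanisation cascade, had 112, 112 and 84.2 CPM in homozygous libraries and 43.8, 48.8 and 47.2 CPM in control libraries (log2 1.14, edgeR adjusted p = 1.52e-04). Hayan, an activator of prophenoloxidase, had 65.9, 56.7 and 32.1 CPM in homozygous libraries, against 19.7, 30.7 and 22.0 CPM in control libraries. Its replicate 3 was barely past the highest control, and the log2 change was 1.09 over all libraries and 0.38 with replicate 3 alone (edgeR adjusted p = 0.00660 and 0.353). Lysosomal cathepsins had 2 of 7 tested genes higher, 28.6% against 10.9% of all tested genes. CtsL1, a cysteine protease, had 498, 529 and 486 CPM in homozygous libraries and 269, 273 and 322 CPM in control libraries, and cathD, an aspartic protease, had 94.1, 100 and 99.7 CPM in homozygous libraries and 57.2, 68.4 and 72.8 CPM in control libraries. The changes were 0.81 and 0.56 on the log2 scale (edgeR adjusted p = 5.64e-04 and 0.00512).

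**Figure D4:**
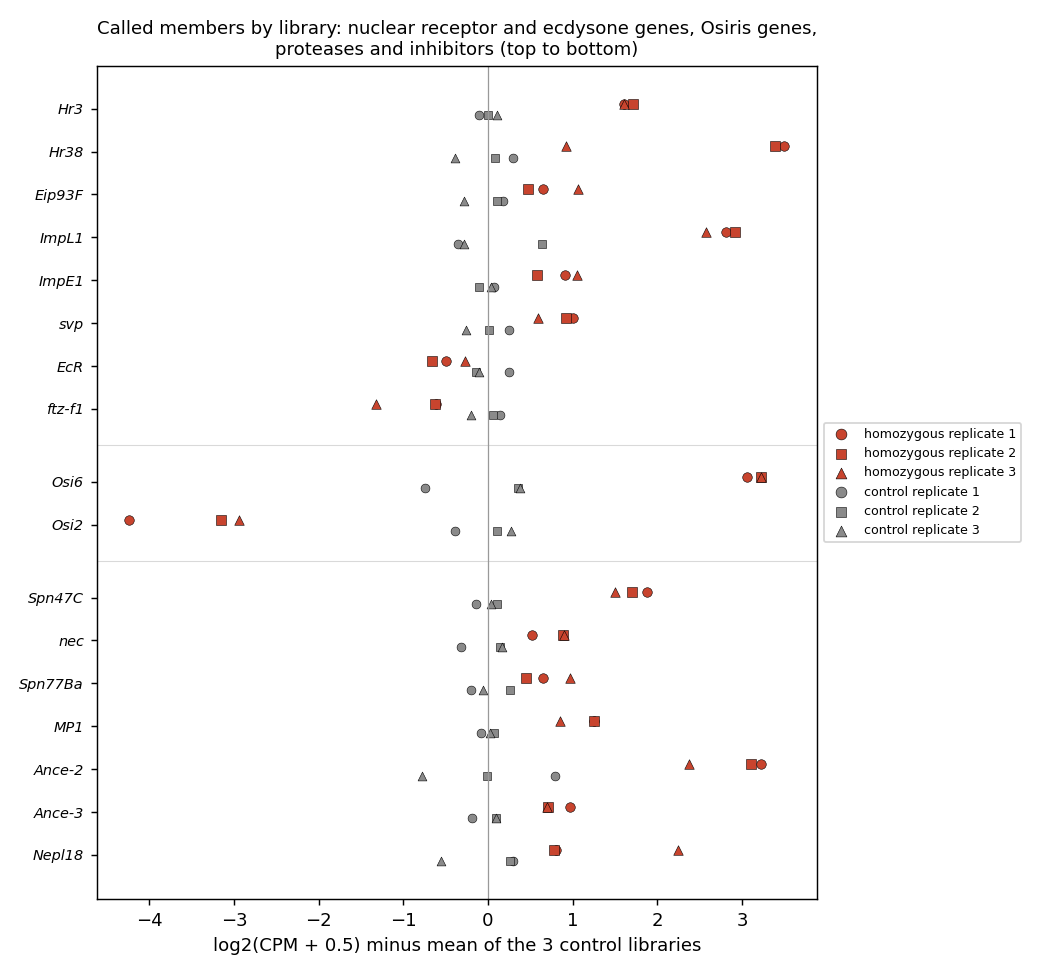
Log2(CPM + 0.5) minus the mean of the 3 control libraries for called genes, with homozygous libraries in red above control libraries in grey and symbol shapes for replicates 1 to 3. Hr38, at 19.7 CPM in homozygous replicate 3 against 120 and 111 CPM in replicates 1 and 2, is the gene of the top block whose homozygous libraries lie farthest apart.

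Nuclear receptors and genes that respond to ecdysone, the moulting hormone, had 6 of 22 tested members higher and 2 lower. Calls made up 36.4% of the list, against 19.7% of all tested genes. The count lower was 4 without homozygous replicate 3, and 1 without homozygous replicate 1 or 2 or control replicate 1. Hr3, an orphan receptor induced by ecdysone, had 79, 85.5 and 79.1 CPM in homozygous libraries, against 23.8, 25.8 and 27.6 CPM in control libraries. ImpL1, an ecdysone-induced gene of imaginal discs, had 34, 36.6 and 28.7 CPM in homozygous libraries and 3.34, 7.1 and 3.52 CPM in control libraries. Eip93F, a transcription factor gene of late metamorphosis, had 906, 802 and 1200 CPM in homozygous libraries, against 652, 618 and 474 CPM in control libraries. The groups did not overlap, and all 3 genes were also called with replicate 3 alone. Log2 changes were 1.65 ± 0.12 for Hr3 (SE; edgeR adjusted p = 1.91e-06), 2.79 for ImpL1 (adjusted p = 2.81e-05) and 0.74 for Eip93F (adjusted p = 0.00512).

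Hr38, a receptor gene that is also switched on by neuronal activity, depended on the libraries. It had 120, 111 and 19.7 CPM in homozygous libraries, against 12.6, 10.8 and 7.63 CPM in control libraries. All homozygous libraries were above the controls, and the log2 change was 3.02 over all of them and 0.92 with replicate 3 alone (edgeR adjusted p = 0.00196 and 0.126). svp, an orphan receptor of photoreceptor and neural development, had a log2 change of 0.85 over all libraries and 0.57 with replicate 3 alone (edgeR adjusted p = 0.00203 and 0.051). ImpE1, another ecdysone-induced gene, had a change of 0.90 (edgeR adjusted p = 0.0135), not called without control replicate 2 (0.84, adjusted p = 0.0563).

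The members that fell were ftz-f1, which prepares tissues for the next ecdysone pulse, and EcR, the ecdysone receptor itself. ftz-f1 had 130, 129 and 79.5 CPM in homozygous libraries, against 219, 208 and 173 CPM in control libraries. EcR had 77.1, 68.7 and 90.5 CPM in homozygous libraries and 129, 99.1 and 101 CPM in control libraries. Both were below every control, with changes of -0.82 and -0.47 on the log2 scale (edgeR adjusted p = 0.00425 and 0.0277). The call of EcR was lost without homozygous replicate 1 (-0.46, adjusted p = 0.0807), homozygous replicate 2 (-0.39, adjusted p = 0.10) or control replicate 1 (-0.34, adjusted p = 0.119).

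Juvenile hormone-binding and takeout proteins, carriers of lipophilic molecules, had 2 of 12 tested genes higher and 1 lower. That was 25% called, against 19.7% of all tested genes. The lower one, Jhbp5, had 1.68, 2.52 and 2.68 CPM in homozygous libraries, against 13.7, 8.51 and 19.7 CPM in control libraries. Its log2 change was -2.60 ± 0.37 (SE), at an edgeR adjusted p = 4.05e-04. The count higher was 0 without control replicate 2 or 3, 1 without homozygous replicate 1 or 2 or control replicate 1, and 3 without homozygous replicate 3.

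The Osiris genes form a cluster of insect transmembrane proteins on 3R, and 5 of 22 were tested. Of these 2 were higher (1 without homozygous replicate 1 or control replicate 2) and 1 lower, 60% called against 19.7% of all tested genes. Osi6 had 27, 26 and 30 reads in homozygous libraries, against 0, 2 and 2 in control libraries. Osi2 had 0, 2 and 3 reads in homozygous libraries and 18, 34 and 37 in control libraries. Both genes separated the groups in opposite directions, at 3.97 and -4.33 on the log2 scale (edgeR adjusted p = 1.66e-04 and 2.24e-04), and both were called with replicate 3 alone. Methuselah-like receptors had 2 of 9 tested genes higher, mthl8 and mthl3, and 0 lower (1 without homozygous replicate 3). That was 22.2% called, near the 19.7% of all tested genes. mthl3 had 23, 30 and 18 reads in homozygous libraries, against 3, 7 and 4 in control libraries (log2 2.03, edgeR adjusted p = 0.00992).

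Tetraspanins, membrane proteins with 4 spans that organise other proteins, had 5 of 25 tested genes higher and 2 lower. Calls made up 28% of the list, against 19.7% of all tested genes. Without homozygous replicate 3 the counts were 9 higher and 3 lower, and without any other single library 4 to 6 higher and 0 or 1 lower. All 5 higher ones lay in the Tsp42E gene cluster on 2R, a list added after values were seen, where 11 genes were tested and 0 were called lower, with log2 differences of -0.22 for Tsp42Ef and -0.03 for Tsp42Ej. Tsp42El had 42.9, 46.9 and 54.2 CPM in homozygous libraries, against 27.1, 25.5 and 21.1 CPM in control libraries. Tsp42Ed had 21.8, 32.1 and 21.7 CPM in homozygous libraries and 11.5, 11.6 and 14.1 CPM in control libraries. Tsp42Ek had 12, 10.3 and 9.97 CPM in homozygous libraries, against 5.57, 5.68 and 4.11 CPM in control libraries. All were above every control, at 0.97, 1.01 and 1.07 on the log2 scale (edgeR adjusted p = 7.49e-04, 0.00394 and 0.00986), but with replicate 3 alone Tsp42El was the one member called. Tsp42Er rested on 15, 12 and 6 reads in homozygous libraries and 0, 0 and 1 in control libraries (edgeR adjusted p = 0.00773). The call of Tsp42Ee (log2 0.43, adjusted p = 0.0162) was lost without homozygous replicate 1 (0.40, adjusted p = 0.0612), control replicate 1 (0.41, adjusted p = 0.0524) or control replicate 3 (0.41, adjusted p = 0.0513).

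**Figure D5:**
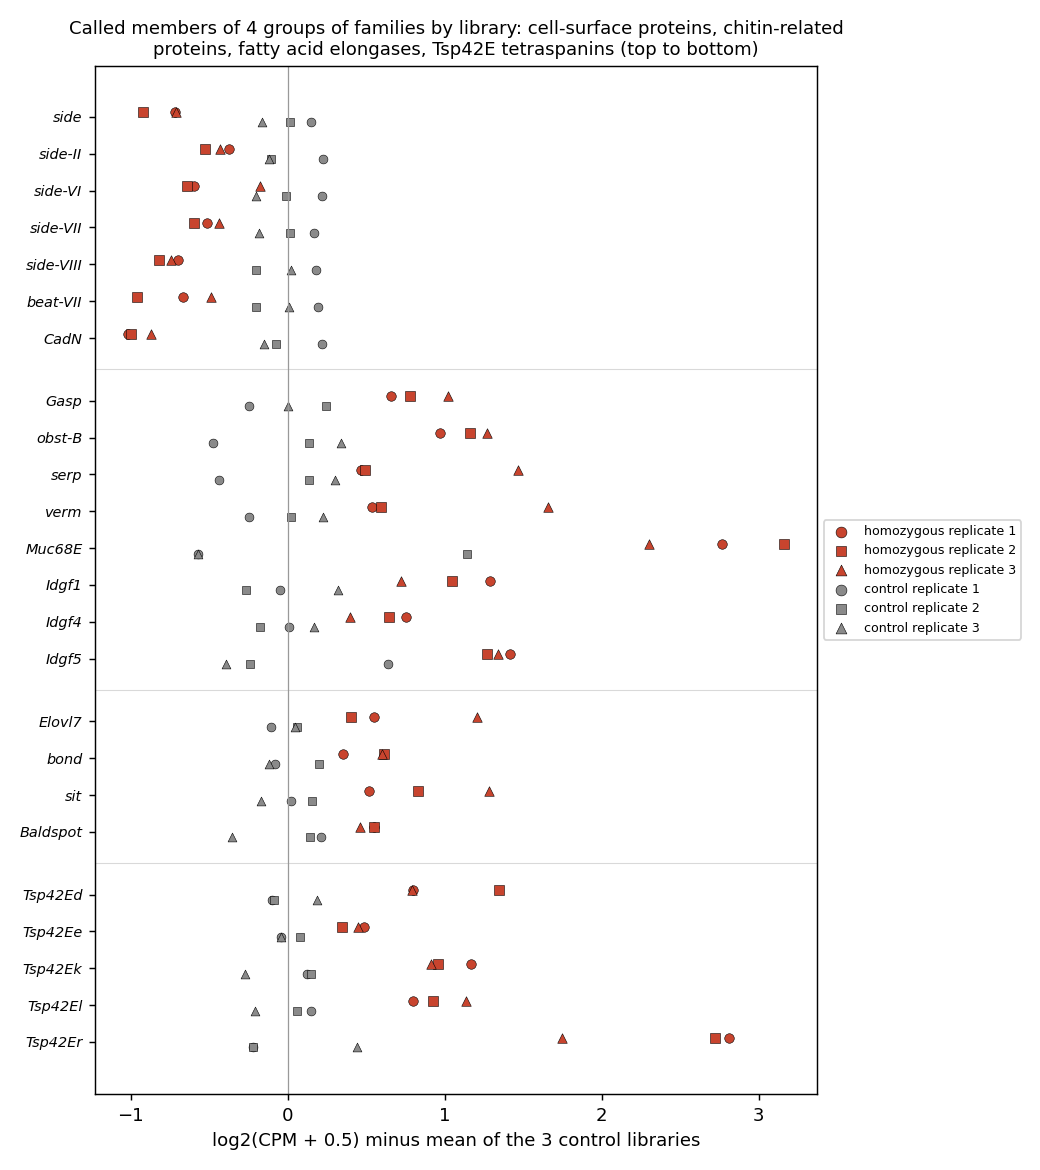
Log2(CPM + 0.5) minus the mean of the 3 control libraries for called members of cell-surface, chitin-related, elongase and Tsp42E families, with homozygous libraries in red above control libraries in grey and symbol shapes for replicates 1 to 3. The cell-surface genes of the top block, all chosen from those called lower, lie to the left of the controls and the other blocks to the right. Homozygous replicate 3 lies among the controls for side-VI. Cell-surface genes called higher, such as 1 cadherin, kirre and kek3, are not drawn.

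Sidestep proteins, cell-surface ligands first known for steering motor axons to muscle, had the largest share of lower calls among the lists drawn. Of 8 tested genes 5 were lower and 0 higher, 62.5% lower against 8.77% of all tested genes, with a median log2 difference of -0.46. With replicate 3 alone 2 were lower (median -0.33), and in the fit corrected for exon length 3 were lower (median -0.32), where 8.56% of all genes were. Without 1 library the count was 7 (homozygous replicate 3), 4 (control replicate 3) or 3 (each of the others). side had 47.7, 41.4 and 47.9 CPM in homozygous libraries, against 87.3, 79.5 and 70.4 CPM in control libraries. side-VIII had 83.1, 76.3 and 80.5 CPM in homozygous libraries and 153, 117 and 137 CPM in control libraries. side-VII had 63.5, 60.1 and 67.1 CPM in homozygous libraries, against 102, 92 and 80.1 CPM in control libraries. Every homozygous library was below every control in these 3 genes, with changes of -0.79, -0.76 and -0.52 on the log2 scale (edgeR adjusted p = 0.00153, 0.00144 and 0.0106).

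The other called genes of the family were less stable. side-VI had 60.6, 58.7 and 81.3 CPM in homozygous libraries and 107, 91.1 and 79.8 CPM in control libraries, so that it rested on replicates 1 and 2. Its call (log2 -0.46, edgeR adjusted p = 0.0427) was lost without homozygous replicate 1 or 2 or control replicate 1 or 2, at -0.47 to -0.35 and adjusted p = 0.0949 to 0.16. side-II (log2 -0.45, adjusted p = 0.0438) kept its call without homozygous replicate 3 and lost it in the 5 other fits, at -0.51 to -0.33 and adjusted p = 0.0517 to 0.169. The neuron marker list summed to 6675, 6001 and 6411 CPM in homozygous libraries, against 9825, 9069 and 8149 CPM in control libraries. Of 7 tested markers 4 were lower, 0 higher and none at 0, where 8.77% of all tested genes were lower. The markers differed. Syt1 had 1095, 1049 and 1181 CPM in homozygous and 2318, 2375 and 2039 CPM in control libraries. For nSyb the values were 1598, 1489 and 1606 CPM in homozygous and 1690, 1633 and 1628 CPM in control libraries. The part of neuron content in the sidestep result was not tested.

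Beaten path proteins, the receptors that bind sidestep ligands, had 2 of 13 tested genes lower and 0 higher. That was 15.4% called, a share under the 19.7% of all tested genes. Their median log2 difference was -0.31, and -0.23 with replicate 3 alone. Without homozygous replicate 2 or control replicate 2 or 3 the count lower was 1. beat-VII had 72.6, 59 and 82.2 CPM in homozygous libraries, against 132, 100 and 116 CPM in control libraries (log2 -0.70, edgeR adjusted p = 0.00483). Cadherins had 1 of 12 tested genes higher and 2 lower, 25% called against 19.7% of all tested genes. Their median log2 difference was 0.08, and 0.33 with replicate 3 alone. Without 1 library 0 or 1 were higher, the 0 without control replicate 1 or 3. The lower count was 3 without homozygous replicate 3, 2 without control replicate 1, and 1 in each of the other fits. CadN, the neuronal cadherin that holds axons in their target layers, had 141, 143 and 156 CPM in homozygous libraries and 333, 272 and 258 CPM in control libraries. Its log2 change was -0.97 ± 0.12 (SE), at an edgeR adjusted p = 1.51e-04, and -0.91 with replicate 3 alone.

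Leucine-rich and immunoglobulin-like neuronal surface proteins had 3 of 14 tested genes higher and 3 lower, 42.9% called against 19.7% of all tested genes. Without 1 library 2 to 4 were higher and 1 to 4 lower, the 1 without control replicate 1. kirre, an immunoglobulin-domain protein of myoblast fusion and synapse formation, had 67.1, 63.2 and 90 CPM in homozygous libraries, against 27.5, 21.9 and 28.2 CPM in control libraries. kek3, a Kekkon-family transmembrane protein, had 50.1, 39.7 and 58.6 CPM in homozygous libraries and 30.8, 27.2 and 32.9 CPM in control libraries. tutl, which shapes dendrite spacing, had 353, 294 and 406 CPM in homozygous libraries, against 499, 502 and 518 CPM in control libraries. None overlapped between groups, with changes of 1.51, 0.71 and -0.53 on the log2 scale (edgeR adjusted p = 5.09e-05, 0.00749 and 0.00851). kek6, a neurotrophin receptor of the fly, was lower by a log2 change of -0.58 (edgeR adjusted p = 0.016), lost without homozygous replicate 1 (-0.44, adjusted p = 0.0729) or control replicate 1 (-0.47, adjusted p = 0.0703). Counts with replicate 3 alone were 3 higher and 0 lower.

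Kinesins, the motors of axonal transport, had 2 of 13 tested genes lower and 0 higher, a share under that of all genes, and 0 with replicate 3 alone. The count lower was 4 without homozygous replicate 3 (where 1 was higher), 0 without homozygous replicate 1 or 2, and 1 or 2 without a control library. unc-104, which carries synaptic vesicle precursors, had 468, 426 and 649 CPM in homozygous libraries, against 774, 760 and 740 CPM in control libraries. It was below every control, and its call (log2 -0.56, edgeR adjusted p = 0.0148) was lost without homozygous replicate 1 (-0.49, adjusted p = 0.0616) or 2 (-0.44, adjusted p = 0.0569).

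Transporters of metals gave single strong members. Among 14 tested zinc transporters 2 were higher (1 without homozygous replicate 1) and 1 lower (2 without homozygous replicate 3). Their share of calls, 21.4%, was near the 19.7% of all tested genes. ZnT33D had 2, 1 and 1 reads in homozygous libraries, against 21, 11 and 31 in control libraries, with a log2 change of -4.16 ± 0.61 (SE), at an edgeR adjusted p = 4.46e-04. Zip89B, an importer of zinc, had 21.1, 23.8 and 30.9 CPM in homozygous libraries and 11.1, 14.2 and 11.1 CPM in control libraries (log2 1.05, edgeR adjusted p = 0.00464). Zip48C had a change of 0.98 (edgeR adjusted p = 0.014), lost without homozygous replicate 1 (0.90, adjusted p = 0.0605). Of 17 tested copper, iron and metallothionein genes 3 were higher, a share under that of all genes, and 1 was with replicate 3 alone. Leaving out homozygous replicate 2 or control replicate 2 or 3 left 1 higher, and leaving out any other library left 2. MtnA, a metallothionein that binds copper, had 747, 637 and 415 CPM in homozygous libraries, against 241, 242 and 304 CPM in control libraries. It was higher in all 3 homozygous libraries, by 1.19 on the log2 scale (edgeR adjusted p = 6.70e-04) and by 0.64 with replicate 3 alone (adjusted p = 0.0104).

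Mitochondrial carriers, which move metabolites across the inner membrane, had 4 of 14 tested genes higher and 1 lower, and 4 and 0 with replicate 3 alone. Over all libraries the share called was 35.7%, against 19.7% of all tested genes. The count lower was 2 without homozygous replicate 3, and 0 without homozygous replicate 2 or control replicate 2 or 3. The adenine nucleotide translocase gene sesB had 5916, 8398 and 7685 CPM in homozygous libraries, against 5052, 4352 and 4625 CPM in control libraries. It shares part of its transcription unit with Ant2, so its reads are uncertain. Bmcp, an uncoupling carrier, had 46.9, 63.7 and 48.9 CPM in homozygous libraries and 21.6, 28.1 and 24.1 CPM in control libraries. Mpc1, a subunit of the pyruvate carrier, had 113, 113 and 90.5 CPM in homozygous libraries, against 69.9, 55.3 and 60.4 CPM in control libraries. The groups were separate in all 3 genes, at 0.65, 1.10 and 0.77 on the log2 scale (edgeR adjusted p = 0.00991, 6.92e-04 and 0.00137), and sesB lost its call without control replicate 2 (0.60, adjusted p = 0.0553). aralar1, the aspartate and glutamate carrier, had a change of 0.52 (edgeR adjusted p = 0.00999). In the plasma membrane, monocarboxylate transporters had 2 of 5 tested genes lower, Mct1 and Sln, at -0.76 and -0.59 (edgeR adjusted p = 0.00524 and 0.00926). The lower share was 40%, against 8.77% of all tested genes.

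Chaperonins, aminoacyl-tRNA synthetases, ribosome biogenesis genes and Rab GTPases had shares of calls under that of all genes. The ribosomal protein list and the list of the proteasome regulatory particle above did not. Of 13 tested chaperonin and prefoldin genes, which fold actin and tubulin, edgeR called 0, with a median log2 difference of 0.17, and 4 had an unadjusted p under 0.05. DESeq2 and limma-voom called 0 and 0 of them. Of 17 cytosolic aminoacyl-tRNA synthetases, which charge tRNAs, 1 was called. This gene, AspRS, had 38.8, 38.8 and 39.9 CPM in homozygous libraries, against 19.3, 22.1 and 29.3 CPM in control libraries (log2 0.72, edgeR adjusted p = 0.00746). Of 39 ribosome biogenesis genes 3 were lower (1 without homozygous replicate 3 or control replicate 2 or 3) and 0 higher, among them Polr1E, a subunit of RNA polymerase I, with 11, 10 and 16 reads in homozygous libraries and 24, 30 and 26 in control libraries (log2 -1.41, edgeR adjusted p = 0.00885). Rab GTPases, which direct vesicle traffic, had 2 of 25 higher and 2 lower, and with replicate 3 alone 0. Of the fits without 1 library, the one without homozygous replicate 3 gave 2 higher, the others 0 or 1, and all gave 0 or 1 lower.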

How the data were processed

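The authors deposited read counts per gene for each library. Per the submitters' processing notes, CASAVA 1.8.4, STAR 2.4.0h, HTSeq 0.6.1, DESeq2 1.6.3 and the build BDGP6 were used. Whether reads were counted by strand is not given in the sources used here, and overlapping and antisense genes may share reads.

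Lines for reads outside genes, 17.2% to 20% of reads in homozygous and 26.2% to 31.7% in control libraries, were left out. Genes were named and placed with an Ensembl annotation of BDGP6, which held 17252 of 17558 IDs. The counts were filtered (filterByExpr, minimum count 10, minimum total 15), scaled with TMM and tested with edgeR 4.0.16 (R 4.3.3) in a fit of 3 group means over all 9 libraries. A gene with few reads in 1 group could pass the filter through the group where it was high, and its call is then a description. The p-values were adjusted by Benjamini-Hochberg over 8972 genes, with a threshold of 0.05. The steps were tested on simulated counts with the same change in all homozygous libraries, which does not bear on calls that differ by library. No library pair of a group agreed within counting noise (chi-square per degree of freedom 5.88 to 25.3). DESeq2 1.42.0, limma-voom (limma 3.58.1), other filters and size factors, an exon-length correction, a replicate block and fits with libraries left out were alternatives.

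The comparison, the family lists and the rule for naming genes were chosen with earlier results of these data known. The rule took up to 4 members of each list by p and the strongest genes of each library pattern, and the text names part of them. After values were seen, 21 symbols of other families were dropped from the lists, and CG17108, apolpp, Rpn3, RpS2, the genes opposite in replicate 3 and all genes not tested were chosen.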

Additional observations from a re-analysis of the deposited data

How the results depend on the processing

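The calls, 978 higher and 787 lower, came to 646 and 502 without control replicate 2, to 367 and 168 at 2-fold or more, and to 494 and 366 at an adjusted p of 0.01. Leaving out each library gave 646 to 1271 higher and 502 to 1134 lower. The labels give no pairing of replicate numbers. Deviations from group means correlated weakly, at 0.0147 to 0.117 for equal numbers and at -0.114 to 0.0388 for others. The replicate block gave 936 and 728 and ended the calls of side-II and side-VI (edgeR adjusted p = 0.0505 and 0.0528) among the named genes. Of 98 named called genes 80 kept the call in every fit without 1 library. Of 1174 family counts under alternatives 213 moved by over 1.5 times. With the strict filter some small lists had no members. In the fit without homozygous replicates 1 and 2, and in that without control replicate 3 as well, signs turned for betaTry (-0.55, -0.74), Jon65Aiv (-0.10, -0.46), LysD (-1.85, -2.28), Mal-A6 (-0.47, -0.77), CG12374 (-3.16, -3.33), CG17108 (-0.09, -0.18), Yp1 (-1.18, -1.28) and Cht5 (0.69, 0.89), and in the second fit alone for alphaTry (-0.03), yip7 (-0.07) and Mal-A1 (-0.40). Signs also turned in limma-voom for Yp1 (-0.02), Cpr49Ac (-0.54) and Mmp1 (-0.18), in the replicate block for Mmp1 (-0.09), without homozygous replicate 1 and without replicate 2 for Yp1 (-0.09, -0.09) and Cht5 (0.02, 0.00), without replicate 3 for Cpr49Ac (-1.92) and Mmp1 (-0.79), and with homozygous replicate 2 or 1 alone for Cpr49Ac (-1.84, -2.0) and Mmp1 (-0.77, -0.81), fits chosen after seeing the data. Other fits with libraries left out gave 6.32 for betaTry, 8.07 for LysD, 4.45 for yip7 (without control replicate 1), 4.34 for Mal-A1 and 3.88 for Mal-A6 (without control replicate 2), 4.95 for alphaTry, 3.98 for Jon65Aiv, 5.64 for CG12374, 1.33 for CG17108 and 0.52 for Yp1 (without homozygous replicate 3), and 2.06 for Cpr49Ac and 1.06 for Mmp1 (without homozygous replicates 1 and 2 and control replicate 3), and -1.44 for Cht5 (without homozygous replicate 3). The causes were not tested. With 3 libraries a group, an exact permutation test of a single gene cannot go below p = 0.1.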

Other observations

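On the small chromosome 4, 15 of 89 tested genes were lower (16.9%) and 4 higher (4.49%) in homozygous heads, against 8.77% lower and 10.9% higher over all tested genes. Their median log2 difference was -0.21, and it was -0.17 with homozygous replicate 3 alone, where 11 were lower and 3 higher. The medians by library were -0.17, -0.31 and -0.14 in homozygous replicates 1, 2 and 3. In the fit corrected for exon length, 15 were lower and 6 higher, with a median of -0.15. The shares of calls on the other chromosomes lay between 18.5% and 21.5%, and their medians between 0.00 and 0.05.

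Families built from shared symbol stems, rather than from lists, gave 128 groups with at least 5 tested members. Among them the Ttc stem, genes with tetratricopeptide repeats, had 3 of 5 tested genes lower, where 8.77% of all tested genes were. The Syt stem, synaptotagmins, some of which trigger vesicle release, had 3 of 5 lower. Of these, 1, Syt14, rested on homozygous replicates 1 and 2. With homozygous replicate 3 alone, 0 Ttc genes and 2 Syt genes were lower. Stems of vesicle sorting (Vps, 25 tested) and nuclear pore (Nup, 18 tested) genes had 1 call each.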
